A study of Mus musculus with 18 samples.

Results

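Replication-dependent histone genes encode the bulk H1, H2A, H2B, H3 and H4 proteins that package DNA as it is copied. They were taken here as the protein-coding genes whose GENCODE M21 symbol begins with Hist1h, Hist2h, Hist3h or Hist4h, which gave 67 of the 54446 counted gene identifiers. Another 3 symbols of this form belonged to pseudogenes and were left out. Membership went by symbol alone, so not every member need encode a bulk histone, and expression in S phase was not tested. By type there were 6 H1, 18 H2A, 18 H2B, 12 H3 and 13 H4 genes. By place, 54 lay in the Hist1 cluster (chromosome 13, 21715763 to 23934851), 10 in Hist2 (chromosome 3, 96219865 to 96270132), 2 in Hist3 (chromosome 11, 58948920 to 58956830) and 1 was Hist4h4 (chromosome 6, 136801553 to 136804415). Coordinates are those of GENCODE M21 on GRCm38.

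The series measured poly(A) RNA in mouse embryoid bodies, which form when embryonic stem cells aggregate in suspension and differentiate. The C57BL/6 stem cells had Mettl14 or Mettl3 as a conditional knockout (CKO), and the 2 proteins form the core of the enzyme that writes N6-methyladenosine on mRNA. Each line gave a control, the CKO, and the CKO with 5 µM inhibitor, with 3 libraries per group, 18 in all, after 7 days in embryoid body medium without feeders. Cells of the Mettl14 line received GSK343, an inhibitor of EZH2, which methylates H3K27. Those of the Mettl3 line received GSK-J4, an inhibitor of KDM6A and KDM6B, which demethylate H3K27. The CKO cells without inhibitor received DMSO, the labels do not state what the controls received, and they do not say how or when the deletion was made. According to the series design, the question was how inhibiting the H3K27 methyltransferase alters the expression changes of the Mettl14 knockout. The labels do not say whether replicates came from separate cultures, so the spread behind every p-value is that between these samples and may be technical.

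Replication-dependent histone genes are transcribed in S phase, and their mRNAs differ from other mRNAs in ending with a short stem-loop instead of a poly(A) tail. SLBP holds the stem-loop, the U7 snRNP guides the cut behind it, and the stem-loop also serves in the decay of the mRNA when replication stops. Some of the genes also have longer transcripts that read past the stem-loop and end in a poly(A) tail, and such transcripts can be kept by a poly(A) selection. The libraries were made from poly(A)-selected RNA, so a level here is that of the histone RNA that passed this selection. In bulk samples, fewer cells of a type and less RNA per cell cannot be told apart.

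Total counts ran from 721853 to 32540164 per library, and the 67 genes took 314 to 18673 of them. The targeted genes did not separate the groups. Mettl14 ran from 17.64 to 19.2 CPM in its controls and from 17.12 to 24.57 CPM in the CKO, and Mettl3 from 18.8 to 34.12 CPM and from 6.895 to 25.95 CPM. CPM are counts scaled to library size, here with TMM factors. Counts over a whole gene cannot tell whether part of it is deleted. Of the markers looked up for the labelled cells, 3 of 5 for pluripotency were at a median of 0 CPM over 18 libraries. They were Pou5f1, Nanog and Zfp42, while Sox2 and Esrrb had medians above 0. Of the 10 early lineage markers, 8 had a median of 0 (Afp, Cdx2, Foxa2, Pax6, Sox1, Sox17, T and Ttr). The 9 mesenchyme and fibroblast markers were all detected. Several measures set the GSK-J4 libraries off from the other 15, and they are given beside the results. Within the Mettl3 line the GSK-J4 libraries were also the shallowest, with 3395675, 8289423 and 4850897 counts. The untreated CKO libraries of that line had 17544904 to 32540164 counts and its controls 21615674 to 29496824. In that line GSK-J4 and low depth thus went together and cannot be told apart by group. Mettl14 CKO replicate 3 and GSK343 replicate 3 were the shallowest libraries (1303697 and 721853 counts), and the first of them also had the most RNA that carries no poly(A) tail (2882 CPM over the listed RNAs such as Rn7sk, against 65.7 to 258 CPM in the other 14 libraries without GSK-J4).

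The stem-loop is shown because it is the element that sets these mRNAs apart. The annotated transcripts were searched, on their own strand, for 16 bases that begin with GG and end with CC and have 6 paired bases on each side of a 4-base loop beginning with TT. It was found in 44 of the 67 genes, against 86 of the 21799 other protein-coding genes (0.395%). The 44 matches fell into 6 sequences, printed as DNA with the paired bases in capitals. The first was in 26 genes of types H1, H2A, H2B and H3, the second in 6 genes of types H1, H2B and H3, and the third in Hist2h2ac. The last 3 sequences were found in H4 genes.
Hist1h1c, Hist1h2ac, Hist2h2aa2 and 23 others: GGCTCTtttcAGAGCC
Hist1h3f and 5 others: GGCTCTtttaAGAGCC
Hist2h2ac: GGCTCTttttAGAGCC
Hist1h4c, Hist1h4d, Hist1h4h, Hist1h4n, Hist4h4 and 2 others: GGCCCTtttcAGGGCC
Hist1h4i and Hist2h4: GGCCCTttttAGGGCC
Hist1h4b and Hist1h4j: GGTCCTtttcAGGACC

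How far the annotated transcript runs past the stem-loop divided the genes further. In 22 genes it ran on for more than 100 bases, in 22 for 100 bases or fewer, and in 23 the search found no stem-loop in the annotated transcript. Hist1h1d had 4884 annotated bases after the stem-loop, Hist4h4 2445 and Hist1h2ac 2010, whereas Hist1h4b had 28 and Hist1h4n 31. The median level over the 18 libraries was 3.73 CPM per kb of exon in the genes with the long end, 1.43 in those with the short end and 0.802 in those without a match. The 3 classes also differed in how far their reads can be placed. The median share of 50-base windows of the transcript found in no other gene was 76.65% for the long end, 36.9% for the short end and 17.2% for those without a match. Near-identical copies, and other genes annotated over the same bases, make single-gene counts uncertain. Of the 67 genes, 34 had under 50% of their windows to themselves and 5 had none. Across the 67 genes that share described the level per kb poorly (Spearman 0.106, a description over genes that share libraries).

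**Figure D1:**
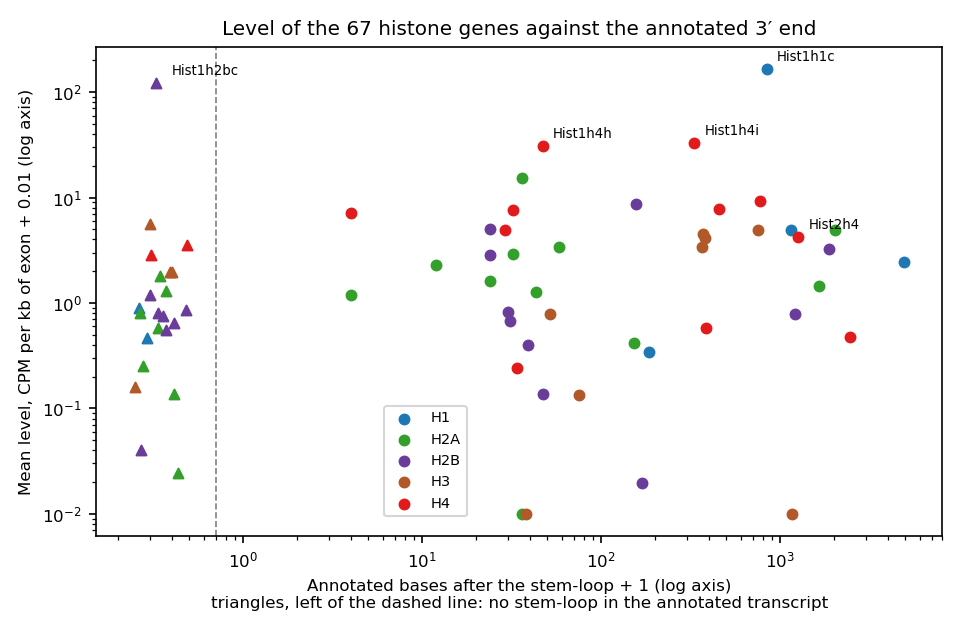
Mean level over the 18 libraries of each of the 67 histone genes (CPM per kb of exon plus 0.01, log axis) against the annotated bases after the stem-loop plus 1 (log axis), with colour for histone type and triangles for genes without a stem-loop match, whose place left of the dashed line has no meaning. Hist1h1c, with 840 bases after the stem-loop, and Hist1h2bc, with no match, lie above all others.

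The upstream sequence is shown because the types differ in the elements they carry. Printed are the H4 genes Hist1h4c and Hist1h4d and the H2A gene Hist1h2ac, called for GSK-J4 against the CKO in all 18 other settings below. The H4 gene Hist1h4b was also called in all 18 and is not printed. In the 250 bases before the RefSeq start (GRCm38.p6), 61 of the 67 genes could be matched, with 62 windows. GGTCCG, the core of the element that HINFP binds in H4 promoters, was in 9 of 12 H4 windows (75.0%), in 1 H2B and 1 H3 window, and in 6.72% of the 32851 RefSeq windows. The count depends on where a window ends, and that of Hist1h4h stops after 5 of the 6 letters. For GSK-J4 against the CKO, 3 of 7 tested H4 genes with GGTCCG in the window were called. Of those without it, 2 of 2 were called (Hist1h4b and Hist1h4h). Whether the site goes with a call was not tested. CCAAT was in all 6 H1, 17 H2A and 17 H2B windows and in 8 of 10 H3 windows, against 3 of 12 H4 windows and 33.8% of all. The octamer ATTTGCAT, which POU2F1 binds, was in 7 of 17 H2A and 7 of 17 H2B windows and in no H1, H3 or H4 window, against 1.6% of all, and TATAAA was in 46.8% of the histone windows against 12.4% of all. Each motif was searched on both strands and counted on its own, whether or not it overlapped another, and a match describes the letters only. Capitals mark the 4 motifs or their reverse complements. Hist1h4c (minus strand) is at chr13:23698459-23698708, Hist1h4d (plus strand) at chr13:23581318-23581567 and Hist1h2ac (minus strand) at chr13:23683960-23684209.
Hist1h4c: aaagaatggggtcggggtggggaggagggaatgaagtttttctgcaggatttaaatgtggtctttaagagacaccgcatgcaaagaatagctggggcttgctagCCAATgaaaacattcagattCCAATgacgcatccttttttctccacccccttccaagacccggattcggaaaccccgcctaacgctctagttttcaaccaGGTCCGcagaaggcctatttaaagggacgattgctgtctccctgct
Hist1h4d: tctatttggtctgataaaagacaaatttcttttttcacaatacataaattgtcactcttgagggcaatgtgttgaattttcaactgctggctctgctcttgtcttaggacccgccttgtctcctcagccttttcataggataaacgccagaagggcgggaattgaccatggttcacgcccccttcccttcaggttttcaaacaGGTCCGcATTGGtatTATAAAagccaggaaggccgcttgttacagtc
Hist1h2ac: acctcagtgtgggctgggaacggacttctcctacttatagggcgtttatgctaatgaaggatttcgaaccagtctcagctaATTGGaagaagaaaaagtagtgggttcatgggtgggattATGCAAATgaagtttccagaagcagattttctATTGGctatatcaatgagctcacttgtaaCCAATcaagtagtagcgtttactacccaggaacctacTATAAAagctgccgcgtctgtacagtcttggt

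Only a few of the genes were well covered. A mean of 10 CPM or more over the 18 libraries was reached by 8 genes, 26 had 1 to 10 CPM and 33 had less than 1 CPM. Only 9 had a count in every library, and Hist1h3a, Hist2h2aa1 and Hist2h3c1 had none in any. Per kb of exon, Hist1h1c led with a mean of 165 CPM, followed by Hist1h2bc with 121 CPM. Hist1h1c encodes a linker histone that sits where DNA enters and leaves the nucleosome. Next came the H4 genes Hist1h4i with 32.7 CPM per kb and Hist1h4h with 30.5 CPM per kb, then the H2A gene Hist2h2aa2 with 15.2 CPM per kb. Hist1h1c and Hist1h2bc together held 71.5 to 81.0% of all histone counts in 14 of the 15 libraries without GSK-J4 and 62.98% in Mettl14 CKO replicate 3. In the GSK-J4 libraries they held 42.5%, 53.7% and 58.5%, below every other library.

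With GSK-J4, histone RNA was higher than in the untreated Mettl3 CKO, with the largest ratio in H4 genes. The sum over the 67 genes was 461.7, 477.7 and 350.9 CPM in the CKO libraries and 1088, 1264 and 1134 CPM with GSK-J4. The groups did not overlap, and the GSK-J4 libraries lay above all other 15, whose highest was 642.9 CPM. The ratio of the means was 2.70 (1162 ± 91.5 against 430.1 ± 69.1 CPM, SD, n = 3). Without Hist1h1c and Hist1h2bc the other 65 genes summed to 83.6 to 133 CPM in the CKO and 471 to 625 CPM with GSK-J4, a ratio of 5.29. On the scale of plain CPM, without TMM factors, GSK-J4 values were higher still, with a mean of 1411 CPM over the 67 genes.

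**Figure D2:**
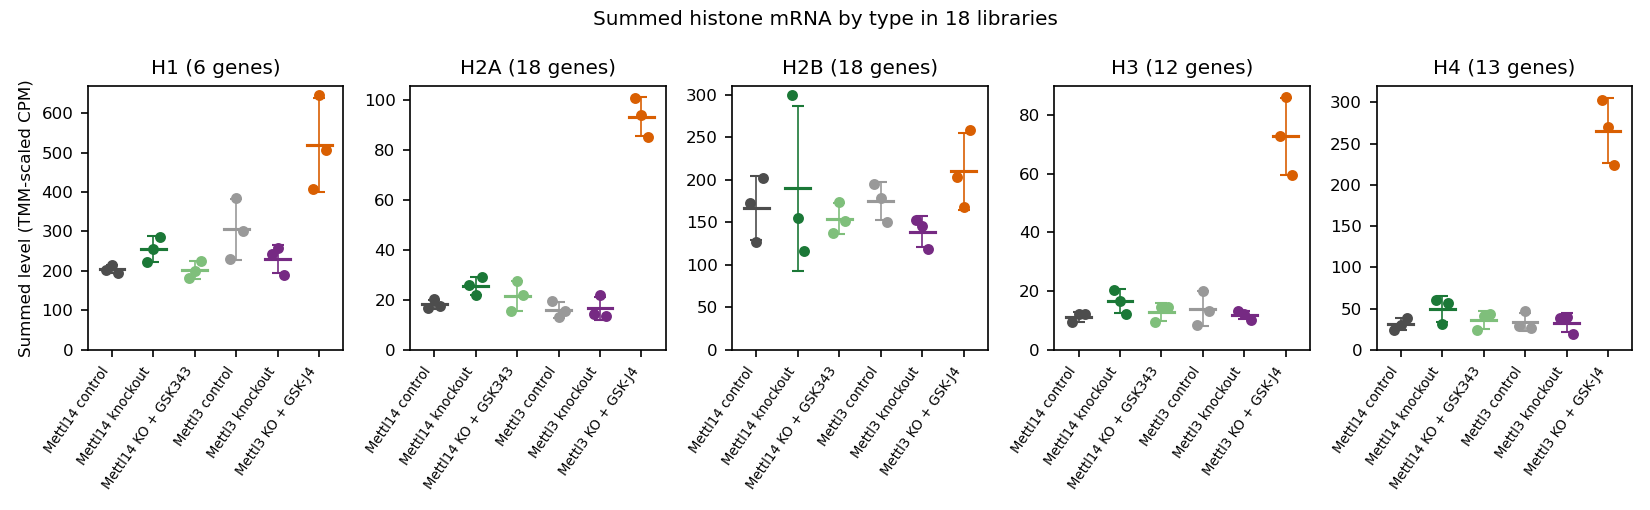
Summed level of the histone genes of each type (TMM-scaled CPM) in each of the 18 libraries, by group, with the mean and SD of 3 libraries. The 3 GSK-J4 libraries lie above the other 15 for H1, H2A, H3 and H4, and overlap them for H2B.

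The ratio differed by type. H4 genes, whose protein forms the tetramer with H3 at the centre of the nucleosome, summed to 38.7, 40.1 and 19.3 CPM in the CKO and to 303.3, 270.3 and 224.2 CPM with GSK-J4. Their ratio of 8.14 was above those of H3 (6.15), H2A (5.65), H1 (2.26) and H2B (1.51), an order of point values whose differences were not tested. H3 genes summed to 59.5 to 85.9 CPM with GSK-J4 and to 8.26 to 20.5 CPM in the other 15 libraries, and H2A genes to 85.2 to 101 CPM against 13.3 to 29.0 CPM. H2B genes summed to 203.6, 167.9 and 258.4 CPM with GSK-J4 against 153.0, 145.3 and 119.0 CPM in the CKO. They overlapped the Mettl3 controls (150.9 to 195.6 CPM), an overlap that was gone on the plain CPM scale (200.6 to 315.8 against 148.9 to 197.3 CPM). Most H2B counts came from Hist1h2bc, and the other 17 H2B genes summed to 50.1 to 81.1 CPM with GSK-J4 against 20.2 to 33.6 CPM in the other 15 libraries. Hist1h1c held most of the H1 sum. Taken alone it overlapped between GSK-J4 and the other 15 libraries, and so did the sum of the remaining H1 genes.

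By cluster, Hist1 genes summed to 989 to 1180 CPM with GSK-J4 and 340.8 to 470.2 CPM in the CKO, a ratio of 2.53. The 10 Hist2 genes summed to 72.1 to 110.3 CPM against 6.04 to 10.6 CPM, a ratio of 10.5. The 2 Hist3 genes overlapped between the groups. Hist4h4, alone on its chromosome, had no count in the 3 CKO libraries and 1.35 to 9.59 CPM with GSK-J4. The sums also differed by the annotated end of the transcript. Without Hist1h1c, genes with more than 100 bases after the stem-loop summed to 353 to 389 CPM with GSK-J4 and to 60.0 to 128 CPM in the other 15 libraries. Those with 100 bases or fewer summed to 86.0 to 156 CPM against 16.3 to 40.5 CPM. Those with no match summed to 185 to 213 CPM against 103 to 277 CPM, and these overlapped through the abundant Hist1h2bc. Without it the other 22 such genes summed to 31.4 to 80.3 CPM with GSK-J4 and to 1.46 to 21.1 CPM in the other 15 libraries, which did not overlap.

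Of the 67 genes, 38 had enough counts to be tested in the Mettl3 line by edgeR's quasi-likelihood test, and 9 of them rose with GSK-J4 against the untreated CKO while none fell. Genes were called at a Benjamini-Hochberg adjusted p under 0.05 over all 16782 genes tested, of which 13% were called, 3.96% higher and 9.07% lower. The calls were 6 of 10 tested H4 genes, 2 of 8 H2A, 1 of 4 H1, 0 of 10 H2B and 0 of 6 H3 genes. In the H2B and H3 genes, this fit gave values without a call, with medians of 0.86 and 2.98 on the log2 scale. Other settings did call some of them. Hist1h3f was called in 5 of 18, Hist1h2bb and Hist1h2be in 3 of 18 each, Hist1h3e in 1 of 18 and Hist2h2be in 1 of 17. The fitted change was above 0 in 35 of the 38 and had a median of 2.47 on the log2 scale, beside -0.06 over all genes tested. Scaling by library totals moved the median of all genes by 0.24 and that of the histone genes to 2.71. The median of the 10 H4 genes was 4.17, with a range from 1.73 to 9.75 that includes genes fitted against 0 or 1 count. Of the 38, 7 had enough counts to be tested only through the GSK-J4 libraries. Among them were the H4 genes Hist1h4b, Hist1h4j and Hist4h4, and Hist1h4b and Hist4h4 were called. The H4 calls and the H4 median thus include genes that passed the filter through their GSK-J4 counts. Of the other 31 genes, 28 were above 0 and 7 were called, and their median was 1.88. In 17 of the 61 histone genes with a count all GSK-J4 libraries were above all CKO libraries and in 0 below, where 5.72% and 13.6% of all genes with a count were.

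**Figure D3:**
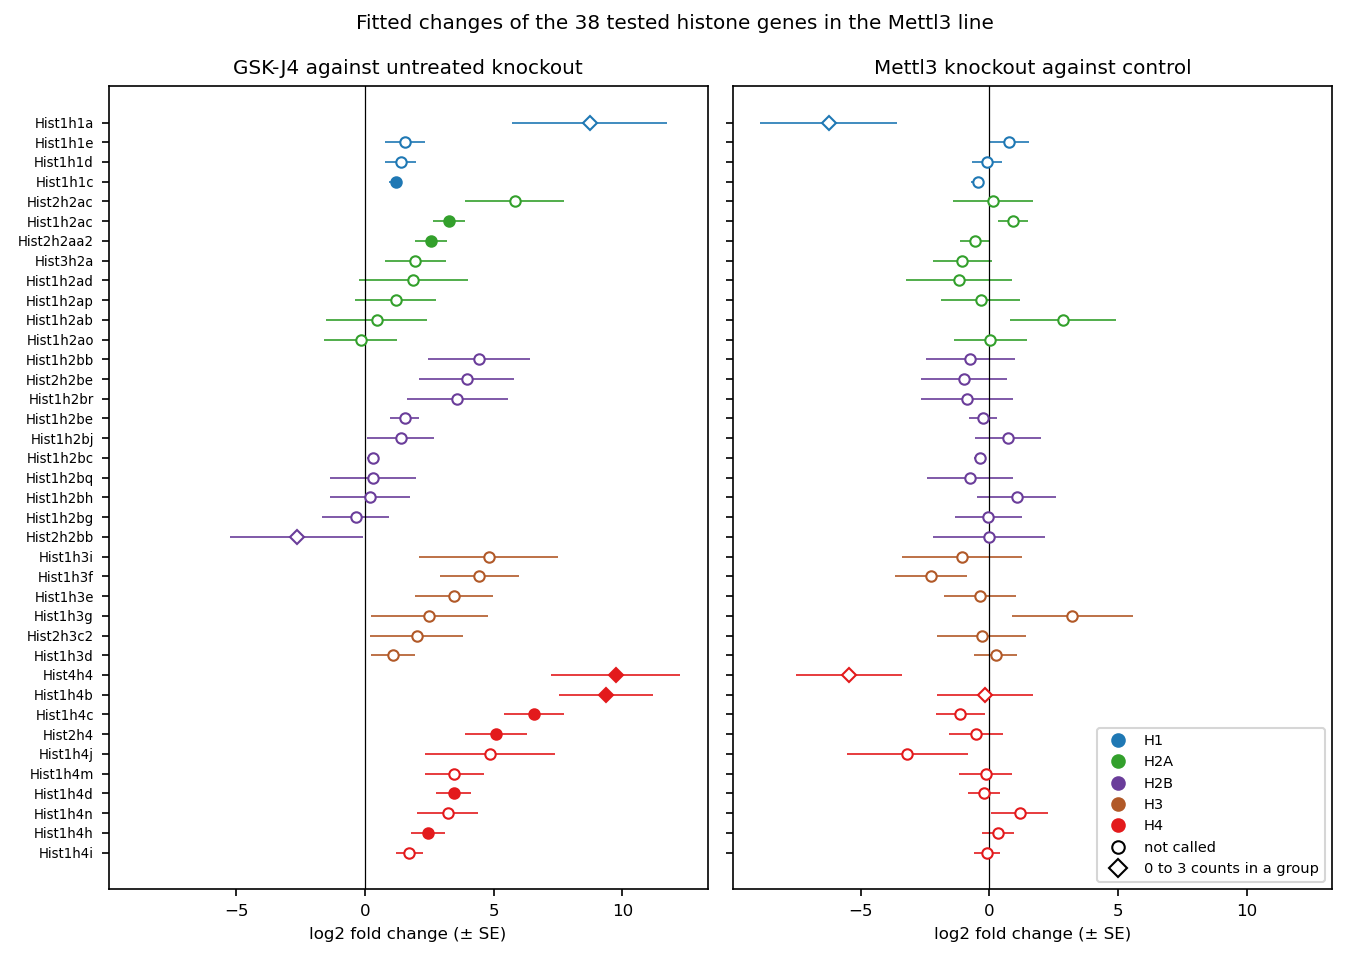
Fitted log2 fold changes with SE of the 38 tested histone genes in the Mettl3 line, for GSK-J4 against the untreated CKO (left) and for the CKO against control (right), with filled markers for called genes. Diamonds mark genes with 0 to 3 counts in a group, whose plotted value is no bound. The 10 tested H4 genes all lie above 0 in the left panel. Among them Hist1h4b, Hist1h4j and Hist4h4 passed the filter only through their GSK-J4 counts, which favours a value above 0.

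Hist1h4c (chromosome 13, 23697635 to 23698454, minus strand) and Hist1h4d (chromosome 13, 23581598 to 23582735, plus strand) are the H4 genes whose promoters are printed above. Hist1h4c was at 0.0616, 0.228 and 0.815 CPM in the CKO and at 36.9, 15.3 and 52.6 CPM with GSK-J4. In all 15 libraries without GSK-J4 it was at 2.75 CPM or less, far below the 3 with it. Its log2 fold change was 6.58 ± 1.16 (SE, adjusted p = 0.00388). Hist1h4d was at 1.97, 8.66 and 2.58 CPM in the CKO and at 42.2, 37.5 and 59.2 CPM with GSK-J4. The groups did not overlap, and its log2 fold change was 3.45 ± 0.68 (adjusted p = 0.00743). Most of both transcripts can be told from other genes, with 80.4% and 89.8% of their 50-base windows unique.

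Hist2h4 (chromosome 3, 96261682 to 96263311, minus strand), the H4 gene of the Hist2 cluster, has 99.0% unique windows and a transcript that runs 1257 bases past the stem-loop. It was at 1.17, 1.94 and 0.204 CPM in the CKO and at 22.5, 46.8 and 38.1 CPM with GSK-J4. No library of one group reached the other, and the log2 fold change was 5.07 ± 1.21 (adjusted p = 0.0190). Hist1h4h (chromosome 13, 23531050 to 23531519, plus strand) was at 13.3, 5.93 and 4.11 CPM against 69.3, 27.5 and 25.6 CPM. Its GSK-J4 libraries were all above the CKO libraries, replicate 1 by the most, and the log2 fold change was 2.44 ± 0.66 (adjusted p = 0.0332).

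The 2 called H4 genes with next to no counts in the CKO were Hist1h4b and Hist4h4. Hist1h4b (chromosome 13, 23757013 to 23757409, plus strand) had 1 count over the CKO libraries and 272 with GSK-J4, of which 203 came from replicate 2. The ratio of its levels was 1081 with a 95% counting interval from 192.4 to 42840, and the adjusted p was 0.00680. Only 24.1% of its windows are unique, and it overlaps the antisense gene 4930558J22Rik, so its count is uncertain. Hist4h4 had 0 counts in the CKO and 123 with GSK-J4, at least 43.1-fold higher when set against a floor of 3 counts per library (adjusted p = 0.0339). These intervals and floors take in counting error alone.

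The H4 genes that were not called also had higher values. Hist1h4i (chromosome 13, 22040636 to 22041362, minus strand) was at 20.4, 20.0 and 8.63 CPM in the CKO and at 79.4, 43.4 and 33.9 CPM with GSK-J4. These did not overlap, but with a log2 fold change of 1.73 ± 0.53 it missed the threshold (adjusted p = 0.0521), and it was called in 10 of 18 other settings. Hist1h4n (chromosome 13, 21831767 to 21832196, minus strand) had 14.4, 21.9 and 1.35 CPM with GSK-J4 against 1.08, 2.28 and 0.815 CPM. GSK-J4 replicate 3 lay within the range of the CKO, and the log2 fold change was 3.23 ± 1.18 (adjusted p = 0.0997).

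Among H2A genes, whose protein pairs with H2B on the outside of the nucleosome, Hist1h2ac and Hist2h2aa2 were called. Hist1h2ac (chromosome 13, 23681467 to 23683948, minus strand) was at 4.06, 8.83 and 2.48 CPM in the CKO and at 42.0, 57.9 and 44.2 CPM with GSK-J4. It was at most 13.1 CPM in all 15 libraries without GSK-J4. The log2 fold change was 3.28 ± 0.63 (adjusted p = 0.00615), and 85.9% of its windows are unique, although Gm24991 overlaps it on the same strand and Gm44350 on the other. Hist2h2aa2 (chromosome 3, 96239749 to 96240276, minus strand) was at 4.03, 3.53 and 3.57 CPM against 14.9, 24.1 and 25.5 CPM. The groups were well apart (log2 fold change 2.58 ± 0.62, adjusted p = 0.0203). None of its windows is unique, and the antisense genes Gm20632 and Gm47311 overlap it, so its counts cannot be told apart from those of copies or overlapping genes.

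Hist1h1c (chromosome 13, 23738808 to 23740367, plus strand) was the only H1 gene called. It was at 228, 224 and 172 CPM in the CKO and at 340, 561 and 481 CPM with GSK-J4. The groups did not overlap, with a log2 fold change of 1.19 ± 0.25 (adjusted p = 0.00956). GSK-J4 replicate 1 was below the highest Mettl3 control (357 CPM). Hist1h2bc (chromosome 13, 23684199 to 23692908, plus strand), an H2B gene and the other abundant one, was at 132, 120 and 95.7 CPM in the CKO and at 122, 118 and 182 CPM with GSK-J4. These overlapped, with a log2 fold change of 0.33 ± 0.23 (adjusted p = 0.38). The 2 genes that hold most histone counts thus had the smallest changes among those described.

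**Figure D4:**
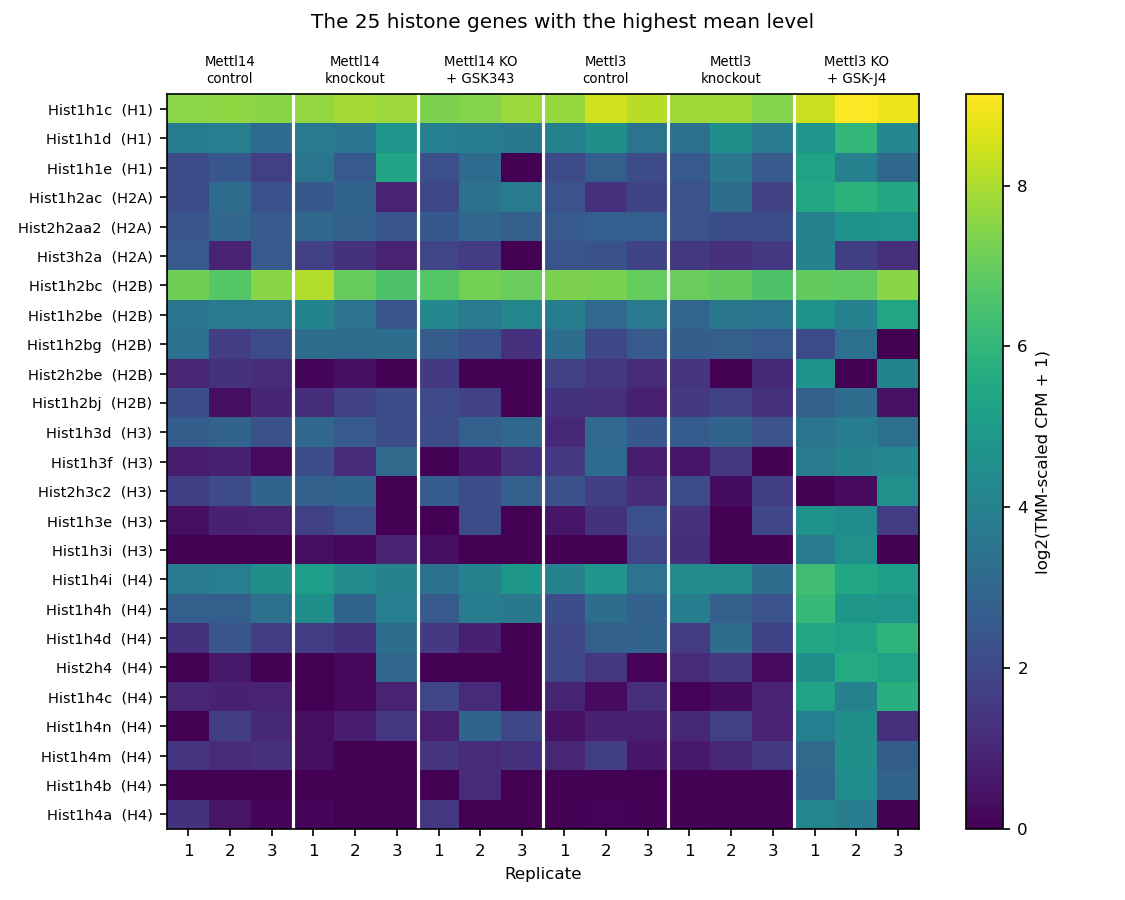
Level of the 25 histone genes with the highest mean level (rows, by type) in each of the 18 libraries (columns, by group), as log2 of TMM-scaled CPM plus 1. The 3 GSK-J4 columns are brighter than the other 15 in rows such as Hist1h4c, Hist1h4d and Hist1h2ac, GSK-J4 replicate 3 is dark for Hist1h4a and Hist1h3i, and Hist1h1c and Hist1h2bc are bright in all.

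The calls rested on few libraries. Leaving out Mettl3 CKO replicate 2 or replicate 3 left 4 of the 9 calls each time, and over all single omissions the number ran from 4 to 13. Hist1h2ac, Hist1h4b, Hist1h4c and Hist1h4d were called in all 18 other settings and omissions tried, with log2 fold changes of Hist1h4c from 6.03 to 7.97 and of Hist1h2ac from 2.94 to 3.79. Hist1h1c lost its call without CKO replicate 2 or 3 (adjusted p = 0.0521 to 0.0622), and Hist2h4 without any 1 of the CKO replicates (0.0598 to 0.0790). Hist1h4h, Hist2h2aa2 and Hist4h4 were each called in 10 settings.

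Against the Mettl3 controls, a comparison that uses the same GSK-J4 libraries, 7 of the 38 tested genes were called, all higher. The background was 11.4% called, 3.16% higher and 8.25% lower. The 6 H4 genes were Hist1h4b, Hist1h4c, Hist1h4d, Hist1h4h, Hist1h4n and Hist2h4, and the remaining one was Hist1h2ac. Hist1h2ac was at 3.99, 1.48 and 2.69 CPM in the controls, far below its 42.0 to 57.9 CPM with GSK-J4 (log2 fold change 4.19 ± 0.65, adjusted p = 0.00202). Hist1h4c was at 0.918, 0.207 and 1.34 CPM in the controls (5.45 ± 1.10, adjusted p = 0.00882), and Hist1h4d at 2.89, 5.85 and 6.50 CPM (3.23 ± 0.67, adjusted p = 0.0105). Both were above every control in each GSK-J4 library. Hist1h4b had 1 count in the controls (ratio 1076, counting interval 191.5 to 42660, adjusted p = 0.00783). It passed the filter only through its GSK-J4 counts. Of the 31 genes that passed without the GSK-J4 libraries, 6 were called.

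Hist1h4h (2.78 ± 0.67, adjusted p = 0.0212), Hist2h4 (4.55 ± 1.17, adjusted p = 0.0293) and Hist1h4n (4.40 ± 1.25, adjusted p = 0.0435) completed the list against the controls. Their calls were less firm, holding in 13, 12 and 7 of 18 settings, and without 1 library the adjusted p of Hist1h4n reached 0.194. Hist1h1c (0.74 ± 0.25, adjusted p = 0.0753), Hist2h2aa2 (2.03 ± 0.61, adjusted p = 0.0541) and Hist4h4 (adjusted p = 0.194) were not called. The median over the 38 genes was 2.25 on the log2 scale, beside -0.08 over all genes. Over the 31 that could be tested without the GSK-J4 libraries it was 2.03. Above 0 were 33 of the 38 and 26 of the 31. In 18 of the 63 histone genes with a count all GSK-J4 libraries were above all controls and in 2 (Hist1h2ak and Hist1h2ba) below, where 5.74% and 15% of all genes with a count were. Without 1 library the number of calls ran from 3 (control replicate 1 or 3) to 11 (GSK-J4 replicate 3), and was 4 without control replicate 2. Hist1h2ac and Hist1h4c kept their calls in all 18 settings, Hist1h4b lost its call only without control replicate 3 (adjusted p = 0.0562) and Hist1h4d only without control replicate 1 (adjusted p = 0.0660).

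Other RNA classes moved with the GSK-J4 group. The summed level of 2941 snRNA, snoRNA and scaRNA genes, which have no poly(A) tail, was 342.8 to 512.1 CPM in the GSK-J4 libraries. In 14 of the other 15 libraries it was 45.8 to 86.2 CPM, and it was 480.5 CPM in Mettl14 CKO replicate 3, whose 65 less abundant histone genes summed to 185.3 CPM. The listed RNAs without a poly(A) tail went the other way, at 31.6 to 49.9 CPM with GSK-J4. Rn7sk, the scaffold of the complex that holds back P-TEFb, fell with a log2 fold change of -1.20 ± 0.33 (adjusted p = 0.0332), a call that held in 8 of 18 settings (up to 0.107 with 1 library left out), while 7 of the 9 entries of that list had a median of 0. Genes of the mitochondrial genome held 0.678 to 0.957% of the counts with GSK-J4 and 3.06 to 4.87% elsewhere.

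Cell markers moved too. The 9 mesenchyme markers summed to 11470 to 19700 CPM with GSK-J4 against 35830 to 50010 CPM in the other 15 libraries, and 7 of the 9 fell against the CKO. Col1a1, a chain of type I collagen, went from 6412 ± 466 to 145 ± 67.3 CPM. The 10 early lineage markers summed to 10.6 to 17.7 CPM against 0 to 5.96 CPM, with none called and Cdx2, T and Ttr at 0 in all 3 GSK-J4 libraries. Only 3 of the 10 were tested (Sox17, Gata4 and Eomes). Their median log2 fold change went the other way from the sum, at -0.53 against the CKO and -1.17 against the controls. The 5 pluripotency markers summed to 0 to 34.2 CPM against 0.413 to 32.0 CPM, with Pou5f1 at 0 in all 3 GSK-J4 libraries. The 6 germ cell markers summed to 1.41 to 16.2 CPM against 0 to 8.95 CPM, with Dazl, Stra8 and Tnp1 at 0 in all 3 GSK-J4 libraries. The part of any of these in the histone values was not tested.

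Genes of S phase and cycling cells did not move as a group. The 18 listed genes summed to 304.3 to 440.0 CPM with GSK-J4, 296.1 to 407.9 CPM in the CKO and 229.8 to 407.9 CPM over the 15 libraries without it, and these ranges overlapped. Their median log2 fold change against the CKO was -0.04, beside -0.06 over all genes. Only Mcm7, a subunit of the replicative helicase, was called. It was at 33.6, 52.2 and 28.0 CPM in the CKO and at 110.8, 115.5 and 87.6 CPM with GSK-J4 (log2 fold change 1.51 ± 0.30, adjusted p = 0.00758).

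Of the genes that act on histone mRNA, few were called. None of the 9 transcription genes was, by edgeR. Npat, the coactivator of histone genes at histone locus bodies, was at 28.8, 22.7 and 39.0 CPM in the CKO and at 43.2, 44.4 and 9.78 CPM with GSK-J4, where replicate 3 was the lowest of the 6. In the 3′ processing list 1 of 19 tested genes rose, Snrpb (0.78 ± 0.21, adjusted p = 0.0306), a Sm protein of the spliceosomal and U7 snRNPs. Slbp, which binds the stem-loops printed above, was at 28.0, 28.8 and 19.1 CPM against 29.5, 40.7 and 56.3 CPM. All 3 GSK-J4 values were above the CKO, but the log2 fold change of 0.79 ± 0.38 missed the threshold (adjusted p = 0.206). In the translation and decay list 1 of 11 rose, Smg1 (0.96 ± 0.22, adjusted p = 0.0142), the kinase of UPF1, a helicase of histone mRNA decay. Of the calls in these lists Snrpb held in 7 and Smg1 in 14 of 18 settings, with adjusted p up to 0.189 and 0.133 when 1 library was left out.

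Histone chaperones, which carry histones to and from DNA, had 0 of 11 calls against the CKO. Against the controls Asf1a, a chaperone of H3 and H4, rose by 2.30 ± 0.60 on the log2 scale (adjusted p = 0.0313, up to 0.138 with 1 library left out). Of the genes listed as replication-independent histone variants, 3 of 11 rose against the CKO. H2afj was at 292.8, 222.3 and 158.6 CPM in the CKO and at 508.6, 562.0 and 523.6 CPM with GSK-J4 (1.29 ± 0.26, adjusted p = 0.00823). The others were H2afz, which encodes H2A.Z (1.10 ± 0.28, adjusted p = 0.0257), and H3f3b, which encodes H3.3 (0.74 ± 0.21, adjusted p = 0.0378). The summed level of the 12 variants was 1463 to 1761 CPM with GSK-J4, within the 999 to 2145 CPM of the other 15 libraries, and the median log2 fold change of the tested ones was -0.28. H2afj lost its call without CKO replicate 2 (adjusted p = 0.0674), and H2afz and H3f3b lost theirs in 7 and 10 of 18 settings. Against the controls none of the 11 was called.

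The Mettl3 knockout against its own control gave no histone call, with lower sums in the knockout. The 67 genes summed to 481.9, 642.9 and 507.4 CPM in the controls and to 461.7, 477.7 and 350.9 CPM in the CKO. The groups did not overlap, with a ratio of 0.79. Hist1h1c was at 210.5, 357.2 and 284.7 CPM in the controls and at 228.4, 224.4 and 171.6 CPM in the CKO, which overlapped, with a log2 fold change of -0.45 ± 0.24 (adjusted p = 1.0 in edgeR). The other 65 genes summed to 96.5 to 128.8 CPM and 83.6 to 132.9 CPM and overlapped.

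Neither edgeR nor DESeq2 called any of the 38 genes tested (0 and 0), 2 had an unadjusted p below 0.05 in edgeR, and edgeR called 0% of all genes. Those 2 were Hist4h4 (20 counts in the controls and 0 in the CKO, at least 2.22-fold lower) and Hist1h1a (39 and 0 counts, at least 3.89-fold lower), with adjusted p of 1.0 in edgeR. Of the 39 Hist1h1a counts, 35 came from control replicate 3. The median over the 38 genes was -0.28 on the log2 scale and 11 were above 0. Of the 61 histone genes with a count, 1 was higher without overlap (Hist1h4n) and 3 were lower (Hist1h2ak, Hist2h2aa2 and Hist3h2a), where 4.09% and 4.22% of all genes with a count were. Hist1h4n had 0.321, 0.792 and 0.707 CPM in the controls and 1.08, 2.28 and 0.815 CPM in the CKO.

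The Mettl14 knockout was likewise compared with its control, the background against which the series asks about the methyltransferase inhibitor. The sum over the 67 genes was 425.9, 404.6 and 465.5 CPM in the controls and 628.4, 481.5 and 500.7 CPM in the CKO. The CKO libraries were all above the controls, with a ratio of 1.24, although they overlapped on the plain CPM scale. The 65 genes other than Hist1h1c and Hist1h2bc summed to 97.4, 103.6 and 101.1 CPM and to 160.9, 112.9 and 185.3 CPM, which did not overlap on either scale (ratio 1.52). The highest of these was CKO replicate 3, the library with the most of the listed RNAs without a poly(A) tail, and the part of that in the sum was not tested. H4 genes summed to 24.3 to 38.3 CPM in the controls and to 60.0, 31.2 and 56.2 CPM in the CKO, which overlapped.

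No single gene passed the test. In the Mettl14 line 22 genes were tested, and edgeR and DESeq2 each called 0 (0% of all 13882 genes by edgeR), while 2 had an unadjusted p below 0.05. The smallest p was that of the linker histone gene Hist1h1e. It was at 3.49, 4.61 and 2.35 CPM in the controls and at 10.7, 5.07 and 39.5 CPM in the CKO (log2 fold change 2.35 ± 0.79, adjusted p = 1.0). CKO replicate 3 was far above the other 2, and the gene overlaps Hist1h2be on the same strand. The H4 gene Hist1h4m had 35 counts in the controls and 2 in the CKO, a ratio of levels of 10.5 with a counting interval from 2.70 to 90.3. The H3 gene Hist1h3f was at 0.532 ± 0.293 and 4.25 ± 3.39 CPM (log2 fold change 2.93 ± 1.45), and the H2A gene Hist1h2ad had 12 counts and 0 counts.

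The median over the 22 genes was 0.34 on the log2 scale beside 0.01 over all genes, and 16 were above 0. With library totals alone it was 0.24, and the median of all genes moved by -0.10. In 7 of the 59 histone genes with a count all CKO libraries were above all controls and in 5 below, where 2.08% and 4.06% of all genes with a count were. Hist1h1c was among the higher ones, at 185.9, 196.0 and 182.5 CPM in the controls and at 198.5, 239.3 and 220.5 CPM in the CKO. A test of whether the 2 knockouts differed in their effect, an interaction over all 18 libraries, called 0 of 39 histone genes by edgeR and 0 by DESeq2, where edgeR called 0% of all genes. The 3 with an unadjusted p below 0.05 were Hist4h4, Hist1h3f (difference -5.17 ± 2.00 on the log2 scale) and Hist1h1c (-0.67 ± 0.32), for the effect in the Mettl3 line minus that in the Mettl14 line, all with an adjusted p of 1.0 in edgeR.

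With GSK343 in the Mettl14 CKO the histone sums overlapped those of the controls. The 67 genes summed to 367.7, 457.4 and 456.7 CPM, below all 3 untreated CKO libraries (ratio 0.80), though not on the plain CPM scale, where the groups overlapped. H4 genes were at 23.8, 41.2 and 43.6 CPM, which overlapped both other groups of the line. Against the untreated CKO, edgeR and DESeq2 each called 0 of 22 genes, and 4 had an unadjusted p below 0.05. Over all genes edgeR called 0.0288%. The 4 were Hist1h2af (32 counts and 1 count, a ratio of 65.6 with a counting interval from 10.96 to 2670, lower with GSK343), Hist1h2ad (0 and 54 counts, at least 1.29-fold higher), Hist1h1e (log2 fold change -1.88 ± 0.79) and Hist1h4m (2 and 46 counts, a ratio of 11.2 with an interval from 2.94 to 95.4, higher). Their adjusted p in edgeR ran from 0.654 to 0.863. Hist1h1e, Hist1h2ad and Hist1h4m also had among the smallest p against the control in the same untreated CKO libraries, which the 2 comparisons share. In the GSK343 libraries Hist1h1e was at 3.65, 8.17 and 0 CPM, the last in the shallowest library.

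Of the 57 histone genes with a count, 2 were higher with GSK343 without overlap and 3 were lower, where 2.9% and 4.06% of all genes with a count were. The median over the 22 genes was -0.25 beside -0.03 over all genes, with 7 above 0. Against the controls, which share the GSK343 libraries, edgeR and DESeq2 each called 0 of 22 genes and 0 had an unadjusted p below 0.05. Over all genes edgeR called 0.166% (0.151% higher and 0.0144% lower). The median was 0.07 with 13 above 0. Of the 58 histone genes with a count, 1 was higher and 3 were lower without overlap, where 2.61% and 6.52% of all genes with a count were. The smallest p belonged to Hist1h2af, with 6 counts and 1 count. Hist1h4d was at 0.861 ± 0.930 CPM with GSK343 and 2.67 ± 1.59 CPM in the controls (-1.26 ± 1.14), and Hist1h4n at 3.35 ± 2.89 and 1.07 ± 1.09 CPM (1.68 ± 1.35). GSK343 and GSK-J4 were given to different lines, and the difference between their effects was not tested.

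The controls of the 2 lines were set side by side as a measure of how far embryoid bodies of the lines differ without knockout or inhibitor, although line and depth cannot be told apart. The 67 genes summed to 544 ± 86.5 CPM in the Mettl3 controls and 432 ± 30.9 CPM in the Mettl14 controls, a ratio of 1.26. Of 39 genes tested, edgeR and DESeq2 each called 0, and 2 had an unadjusted p below 0.05. Over all genes edgeR called 0.913% (0.153% higher and 0.76% lower in the Mettl3 controls). Hist1h1c was higher in all 3 Mettl3 controls than in any Mettl14 control (log2 fold change 0.60 ± 0.22, adjusted p = 0.517). The H4 gene Hist1h4a had 3 counts in the Mettl3 controls and 16 in the Mettl14 controls, a ratio of levels of 16.5 with a counting interval from 4.71 to 88.2. The H3 gene Hist1h3i had 78 counts in the Mettl3 controls, all in replicate 3, and 0 in the Mettl14 controls, at least 2.59-fold higher. In 2 of the 62 histone genes with a count the Mettl3 controls lay above and in 2 below without overlap, where 5.8% and 6.48% of all genes with a count did. The median over the 39 genes was -0.03 on the log2 scale.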

How the data were processed

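The members and the 11 gene lists were chosen with earlier results of these data known. Poly(A) RNA was selected with Dynabeads and made into SMARTer Stranded Total RNA-Seq v2 libraries, per the labels. The submitters' processing notes list CASAVA, Trimmomatic 0.38, HISAT2 2.1.0, HTSeq and the build mm10. HTSeq's annotation release or strand option is not given in the sources used here. Each deposited file holds raw counts of reads by gene identifier. Of 54446 identifiers, 54409 matched GENCODE M21 once the version was dropped, and the 37 others were kept without a symbol.

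Everything else was computed here. Each line's 9 libraries were fitted by the quasi-likelihood F test of edgeR 4.0.16 (R 4.3.3), after filterByExpr and TMM scaling, and comparisons across lines on all 18. Called genes have a Benjamini-Hochberg adjusted p under 0.05. The SE given with an edgeR log2 fold change is its absolute value divided by the square root of F. It therefore restates the test and is no separate estimate. The biological coefficient of variation was 0.394 (Mettl14 line), 0.843 (Mettl3 line) and 0.664 (all). A floor of 3 counts was worth 0.0922 to 4.16 CPM, by depth. Levels are CPM scaled by the TMM factors of all 18 libraries. Named genes are the called ones, the most abundant ones, and up to 4 with the smallest p in each comparison, with up to 3 from each other list. Genes named for their role (Npat, Slbp) or as counted sets were chosen after values were seen. Stem-loops and 50-base windows came from GENCODE M21 transcripts, upstream windows from RefSeq (GRCm38.p6).

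Alternatives were DESeq2 1.42.0, limma 3.58.1 voom with quality weights, RLE factors, no filter, a replicate block, only the groups compared, all 18 libraries in 1 fit, thinning to the lowest total (721853, or 3395675 in the Mettl3 line) and leaving out each library. Library totals without TMM, and omission of the 2 shallowest libraries, were added after seeing the data. The fits were tested on simulated data. Levels and figures used Python 3.11.15, the latter with matplotlib 3.10.9.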

Additional observations from a re-analysis of the deposited data

How the results depend on the processing

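For GSK-J4 against the untreated CKO, 9 histone genes were called, and the number was 15 with all 18 libraries in 1 fit, 18 with DESeq2 and 14 with voom, and 4 to 13 when each library was left out. Against the controls the 7 calls became 12 with all 18 libraries, 14 with DESeq2, 11 with thinned counts and 12 with voom, and 3 to 11 when each library was left out. The calls over all genes changed by setting too, from 977 to 3717 against the CKO, beside 2186 in the main fit. Against the controls they ran from 887 to 3520, beside 1916. The histone counts are not set against the share of all genes called in the same setting. The other 6 comparisons gave 0 histone calls in every setting and omission tried. Same-numbered libraries of a line deviated together with r from -0.155 to 0.143 (Mettl14) and -0.059 to 0.075 (Mettl3), and 3 of 18 correlated best with their own number, so the numbers do not pair the samples. With the replicate block, 7 and 5 histone genes were called with GSK-J4 and 0 elsewhere.

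Over all genes, the number called for GSK-J4 against the CKO ran from 977 to 3717 over the settings and from 1032 to 3061 without 1 library. Against the controls it ran from 887 to 3520 and 888 to 2798. For the other comparisons the ranges were 0 to 56 and 0 to 14 (GSK343 against the CKO), 2 to 71 and 4 to 45 (GSK343 against control), 0 to 15 and 0 to 7 (Mettl14 knockout), 0 to 6 and 0 to 0 (Mettl3 knockout), 124 to 859 and 89 to 231 (between controls), and 0 to 18 and 0 to 1 (interaction). On plain CPM the means with GSK-J4 were 1411 (all 67), 681 (other 65), 113.4 (H2A), 88.2 (H3), 323.1 (H4) and 1291 (Hist1), that of the other 65 in the Mettl14 controls was 96.0 and that of Hist2 in the Mettl14 CKO 12.8. Of 287 values of called genes, 235 kept their call and 52 lost it in the same direction, and of 552 values of genes not called, 15 became calls. Hist1h2af reversed to 1.48 on the log2 scale for GSK343 against control without control replicate 2 (-3.80 to 1.48 over the omissions), and Hist1h3i had 0.0 between the controls without Mettl3 control replicate 3 (0.0 to 7.22). The causes of these shifts were not tested. In the Mettl14 line 22 histone genes had enough counts to be tested.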
